A study of Mus musculus with 6 samples.

Results

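MHC class II molecules present peptides from endosomes to CD4+ T cells, and 7 of their genes were followed in polarized and irradiated macrophages. They are Ciita, the gene of the class II transactivator, the antigen-presenting chain genes H2-Aa, H2-Ab1 and H2-Eb1, the peptide-loading chain genes H2-DMa and H2-DMb1, and Cd74, the gene of the invariant chain. These 7 genes were taken by symbol from 24062 genes in each count table, with no threshold on their values, and each has 1 row.

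RAW264.7, an established mouse macrophage line, was profiled by RNA-seq, and each condition is 1 library from the pooled RNA of 5 wells. M0 macrophages received no polarizing agent, M1 macrophages received LPS at 100 ng/mL with IFN-γ at 20 ng/mL, and M2 macrophages received IL-4 at 20 ng/mL, the polarized states for 24 h. RM0, RM1 and RM2 macrophages were these states given 10 Gy of gamma radiation and kept for 24 h more, and the sources used here do not say whether the non-irradiated cells were kept as long. The labels name bone marrow as the tissue beside the cell line. The doses above are those of the study's methods, and a figure caption of the study gives IFN-γ and IL-4 at 10 ng/mL each. With 1 library per condition no difference between 2 libraries has a replicate check, and intervals given for them cover counting error only.

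In macrophages, IFN-γ is known to induce Ciita, in part through Irf1. CIITA does not bind DNA itself but is recruited to class II promoters by the RFX complex, CREB and NF-Y, which sit on the X and Y boxes. The αβ chains assemble in the endoplasmic reticulum with the invariant chain, which endosomal cathepsins later degrade, and H2-DM then exchanges its last fragment for peptide. Class II expression is a common readout of macrophage activation by IFN-γ.

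Letters that match the X and Y boxes are shown for the member promoters that hold them, because few or no reads came from these genes. Promoters of 300 bases, 250 before to 50 after the start, came from RefSeq (build GRCm38.p6) and were found for 4 of the 7 members, H2-Aa, H2-DMa, H2-DMb1 and H2-Eb1. They were searched on both strands for GNAAC, the core of the X box, followed after 10 to 40 bases by ATTGG, the inverted CCAAT of the Y box, so that both motifs cannot overlap. This search was chosen with the sequences in view. Each stretch is given 5′ to 3′ on the strand of the gene, with both motifs in capitals.
H2-Aa, chr17:34287859-34287912, minus strand: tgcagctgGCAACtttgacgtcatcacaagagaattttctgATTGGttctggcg
H2-Eb1, chr17:34305768-34305820, plus strand: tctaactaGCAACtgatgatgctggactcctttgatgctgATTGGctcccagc
H2-DMb1, chr17:34153089-34153142, plus strand: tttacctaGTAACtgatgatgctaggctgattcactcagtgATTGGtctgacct

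The gaps between both motifs were 28, 27 and 28 bases in H2-Aa, H2-Eb1 and H2-DMb1. Neither of the promoters listed for H2-DMa held the pair. Of all 32851 promoters in the table, 84.8% held the X core, 37.4% held the Y motif and 4.87% held the pair in this order. Among 4 other class II chain genes with a promoter, H2-Eb2, H2-Oa and H2-Ob held the pair and H2-DMb2 did not, and it was found for 0 of 7 class I pathway genes with a promoter. A match is a description of letters in the reference genome, not a bound site. The reference strain is not that of the cell line, and whether these cells hold the same letters was not tested. A missing match says only that the pair in this order and spacing was not found, and either motif alone can be in the window.

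Counts per library ranged from 17894937 to 18870516. Libraries were scaled by TMM, which aligns the bulk of genes between libraries, and a prior count of 2 was added before taking log2 fold changes. A gene was called between 2 libraries at a 2-fold difference with at least 10 counts in 1 of them, and no fold change was computed with 3 counts or fewer in both. Scaling by library totals instead shifted the median of all genes to -0.46 in M1 against M0, -0.25 in RM1 against RM0 and 0.13 in RM1 against M1, so changes are given relative to the bulk of genes. It also moved the share of higher genes among those called from 41.3% to 16.8% in M1 against M0, from 43.9% to 25% in RM1 against RM0, from 57.8% to 70.5% in RM1 against M1 and from 52.6% to 39.7% in RM2 against M2. Macrophage identity was checked with 8 markers, of which 7 were measured in every library and Mertk had 3 to 8 counts. B cell markers summed to at most 5 counts and T cell markers to at most 1 count per library.

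The transactivator gene Ciita (NM_007575, chromosome 16, 10480072 to 10527564, build GRCm38) was close to absent in all conditions. It had 0 counts in M0, 0 in RM0, 0 in M1, 1 in RM1, 1 in M2 and 0 in RM2. No library passed 3 counts, so neither M1 polarization nor irradiation gave a detectable Ciita level at this depth. In M1, 3 counts would correspond to 0.0338 RPKM, which is scaled reads per transcript length. Ciita overlaps Dexi on the opposite strand, and the setting of strand in the counting is not given in the sources used here.

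The antigen-presenting chains were also at or near 0. H2-Aa (NM_010378, chromosome 17, 34282751 to 34287771), the I-A alpha chain gene, had 0 counts in M0, 1 in RM0, 0 in M1, 1 in RM1, 3 in M2 and 2 in RM2. No library was above 3 counts, and no fold change was computed.

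H2-Ab1 (NM_207105, chromosome 17, 34263227 to 34269418), which encodes the I-A beta chain, had 23 counts in M0, 7 in RM0, 8 in M1, 13 in RM1, 8 in M2 and 11 in RM2. M0 was the highest library, and the other 5 lay between 7 and 13 counts. The level per length ran from 0.295 RPKM in RM0 to 0.957 RPKM in M0.

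H2-Eb1 (NM_010382, chromosome 17, 34305867 to 34316674), which encodes the I-E beta chain, had 29 counts in M0, 28 in RM0, 13 in M1, 1 in RM1, 26 in M2 and 51 in RM2. RM1 was the lowest library, with M1 next, and RM2 was the highest. The level per length ran from 0.0359 RPKM in RM1 to 1.54 RPKM in RM2. H2-Eb1 overlaps Gm20513, an antisense gene, so its reads cannot be told from those of its partner without strand.

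All 3 antigen-presenting chains together had 52 counts in M0, 36 in RM0, 21 in M1, 15 in RM1, 37 in M2 and 64 in RM2. The sums in M1 and RM1 were the lowest of the 6 libraries. In bulk RNA, fewer cells with a transcript and less of it per cell cannot be told apart.

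Of the peptide-loading chains, H2-DMa was measured and H2-DMb1 was not. H2-DMa (NM_010386, chromosome 17, 34122832 to 34139101) had 235 counts in M0, 243 in RM0, 104 in M1, 86 in RM1, 210 in M2 and 160 in RM2. Both M1 libraries lay below the other 4, with and without irradiation. Per length its level was 5.91 RPKM in M0, 6.19 in RM0, 3.51 in M1, 2.57 in RM1, 5.16 in M2 and 4.02 in RM2. The annotated H2-DMa gene overlaps CR974462.3 on the same strand, and CR974462.4 and Gm20493 on the opposite strand. Whether reads of these entered the H2-DMa counts was not tested. H2-DMb1 (NM_010387, chromosome 17, 34153191 to 34160229), the partner chain, had 1 count in RM0 and 0 in the other 5 libraries. H2-DMb2, a close copy of it, had 3 counts in M0, 13 in RM0, 1 in M1, 0 in RM1, 1 in M2 and 3 in RM2. Of 100-base windows in the H2-DMb1 transcript, 13.7% were also in H2-DMb2, so part of the reads of either could have been shared or dropped.

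Cd74 (NM_001042605, chromosome 18) was the one abundant member. It had 21607 counts in M0, 22133 in RM0, 15425 in M1, 16120 in RM1, 25262 in M2 and 25782 in RM2. The M1 and RM1 libraries were the lowest in counts and the M2 and RM2 libraries the highest. Cd74 ranked between 51 and 167 by counts among the genes detected in each library, which numbered 13496 to 14130. It took 98.69% of the reads of all 7 members in M0 (95% Clopper-Pearson interval 98.53 to 98.84) and 99.37% in RM1 (99.24 to 99.49), the lowest and the highest of the 6 libraries. The row of Cd74 lists only bases 60812152 to 60812652, which is 5.69% of the annotated gene, and it is not known from which stretch its reads came. Over the annotated transcript its level was 686 RPKM in RM1 to 922 RPKM in RM2, and over the listed 501 bases 1930 to 2590 RPKM. Mir5107, a microRNA gene that overlaps the annotated Cd74 gene on the same strand, had 25.3% to 26.9% as many counts as Cd74 in every library.

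By level per length the order was Cd74, H2-DMa, and then H2-Ab1 and H2-Eb1, with H2-Aa, H2-DMb1 and Ciita at or under the level of 3 counts. H2-Eb1 was under that level as well in RM1, at 0.0359 RPKM. In M0, H2-Ab1 and H2-Eb1 stood at 0.957 and 0.876 RPKM, and their order was the opposite in M1, at 0.446 and 0.527 RPKM. With 1 library each, these neighbours cannot be ordered. The plot of counts by gene shows the gap between Cd74 and the rest.

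**Figure D1:**
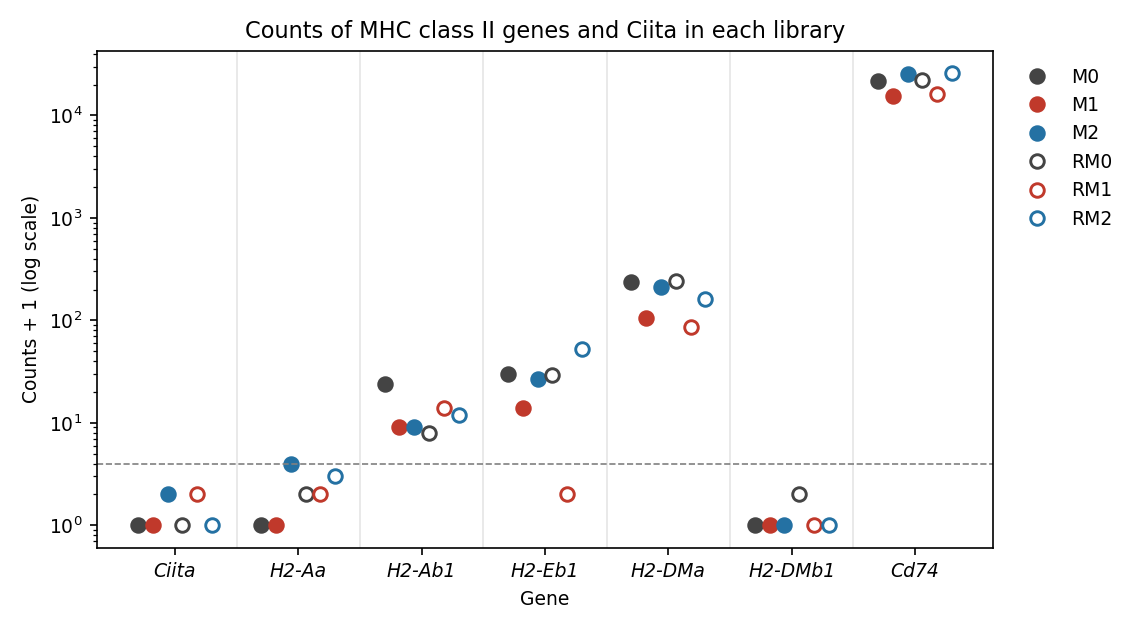
Counts plus 1 on a log axis for the 7 genes, with 1 point per library, filled for non-irradiated and open for irradiated cells and coloured by state (grey M0, red M1, blue M2), and a dashed line at 3 counts. Cd74 sits between 15425 and 25782 counts, H2-DMa between 86 and 243, and Ciita, H2-Aa and H2-DMb1 at or below 3 in every library.

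The M1 stimulus includes IFN-γ, so M1 against M0 addresses whether the class II genes respond to LPS and IFN-γ given together. No library had IFN-γ alone, and the effects of both agents cannot be told apart. None of the 7 members was called, against 22.7% of 11778 genes called in either direction in this comparison. H2-DMa differed by a log2 fold change of -0.74 (95% interval -1.1 to -0.413) and Cd74 by -0.06 (-0.0923 to -0.0326). H2-Ab1 differed by -0.97 (-2.47 to 0.112) and H2-Eb1 by -0.67 (-1.8 to 0.255), and both intervals include 0. The other 3 members had 0 counts in both libraries. With library totals as the scaling, 3 members were called lower, H2-Ab1, H2-Eb1 and H2-DMa, the last at -1.18. Of all genes called under that scaling, 16.8% were higher.

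Among irradiated cells, RM1 against RM0 gave 2 members called lower, against 7.87% of 11713 genes called lower. H2-DMa was lower by a log2 fold change of -1.25 (-1.64 to -0.905). H2-Eb1 had 1 count against 28, a ratio of scaled counts of 0.042 with an interval of the log2 ratio from -9.93 to -1.98. H2-Ab1 differed by 0.93 (-0.305 to 2.69), which a prior count of 0.25 made a higher call at 1.1, and Cd74 by -0.22 (-0.254 to -0.195).

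A model of polarization and irradiation was fitted to all 6 libraries with edgeR's quasi-likelihood test, in which the irradiation states stand in for replicates of polarization. It left 2 residual degrees of freedom and tested the 11574 genes that reached 10 counts in 3 or more libraries, among them 4 of the 7 members. M1 polarization passed an adjusted p of 0.05 for 1 member, H2-DMa, which fell (log2 fold change -1.01, SE 0.199, edgeR adjusted p = 0.002), while 24.3% of all genes tested fell. H2-Eb1 had a log2 fold change of -1.67 (SE 0.697, edgeR adjusted p = 0.069), H2-Ab1 -0.15 (SE 0.579, adjusted p = 0.849) and Cd74 -0.14 (SE 0.141, adjusted p = 0.429). With library totals as the scaling 3 members passed as lower, with H2-Eb1 at -2.02 (edgeR adjusted p = 0.0477) and Cd74 at -0.49 (edgeR adjusted p = 0.0045). No share of all genes was computed under that scaling. Without M2 and RM2, H2-Eb1 passed at -1.79 (edgeR adjusted p = 0.00772), so its call depends on the libraries included.

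Values of Brd2 and of dendritic cell markers are given beside those of H2-DMa. The annotated genes Brd2 and H2-DMa overlap on opposite strands, but their listed rows do not. Brd2 had 7123 counts in M0, 20851 in M1, 6808 in RM0 and 10766 in RM1, the direction opposite to H2-DMa. Dendritic cell markers, of which 3 of 8 reached 10 counts in any library, summed to 30 counts in M1 and 21 in RM1 and to 61 to 76 counts in the other 4 libraries. Ccr7, a chemokine receptor of mature dendritic cells, went from 39 counts in M0 to 1 in M1, whereas Zbtb46, a dendritic cell factor, had 21 counts in M0 and 23 in M1 (log2 fold change 0.51, interval -0.363 to 1.48). The third, Itgax, had 9 counts in M0, 6 in RM0, 5 in M1, 3 in RM1, 22 in M2 and 25 in RM2. Cd209a, Clec9a and Siglech were at 0 throughout. The part of these in the H2-DMa difference was not tested.

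**Figure D2:**
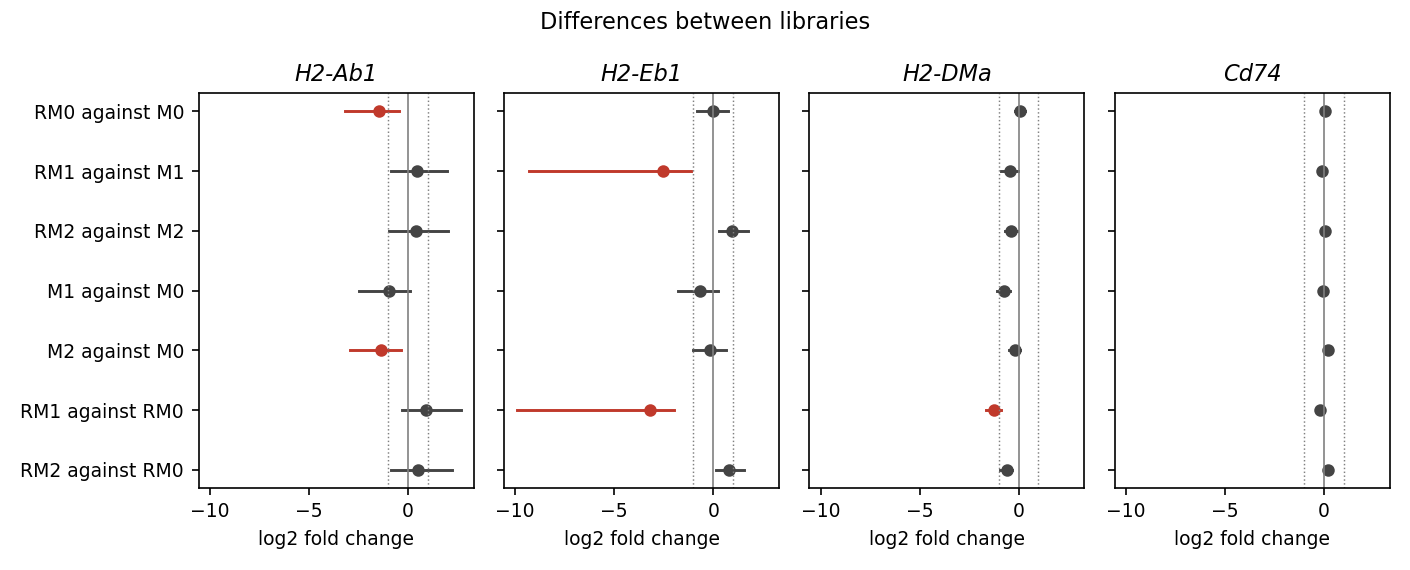
Log2 fold changes of the 4 members with at least 10 counts in any library, in 7 comparisons between libraries, with 95% exact intervals of counting error as lines and 2-fold as dotted lines. Red marks a call, as for H2-Eb1 in RM1 against RM0 (1 count against 28) and H2-DMa in RM1 against RM0 (-1.25), while Cd74 lies within 0.22 of 0 throughout.

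The genes upstream of Ciita were measured and most of them rose in M1. Of 9 genes of the IFN-γ route, 7 passed the test of M1 polarization as higher and 0 as lower, against 23.3% of all genes tested that rose. With library totals as the scaling, for which no share of all genes was computed, 5 rose and 1 fell. Irf1, a factor at the Ciita promoter, had 419 counts in M0, 404 in RM0, 8628 in M1, 1710 in RM1, 405 in M2 and 343 in RM2, and rose by a log2 fold change of 3.7 (SE 0.484, edgeR adjusted p = 0.00016). Both M1 libraries were above the other 4. Jak2, a kinase of the receptor (1.68), and Irf8, a factor of the myeloid lineage (1.63), rose as well. The receptor chain gene Ifngr1 (-0.31, edgeR adjusted p = 0.116) and Spi1, which encodes PU.1 (0.03, adjusted p = 0.889), did not pass.

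The factors that recruit CIITA to DNA were measured in all libraries. Of 7 genes, 3 rose and 3 fell in the test of M1 polarization, in which 23.3% of all genes rose and 24.3% fell. Rfx5, an RFX subunit, had 352 counts in M0, 112 in M1, 308 in RM0 and 133 in RM1 and fell by 1.1 on the log2 scale (SE 0.166, edgeR adjusted p = 0.000386). The NF-Y subunit genes Nfyc (-0.69) and Nfyb (-0.51) fell and Rfxap (0.54), another RFX subunit gene, rose. With library totals as the scaling, for which no share of all genes was computed, 0 of the 7 rose and 3 fell.

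Of 6 genes known to hold back IFN-γ signaling or Ciita, 3 rose in the test of M1 polarization, in which 23.3% of all genes rose. Socs1, an inhibitor of the JAK kinases, had 18 counts in M0, 205 in M1, 24 in RM0 and 63 in RM1 and rose by a log2 fold change of 2.87 (SE 0.448, edgeR adjusted p = 0.000492). Socs3 (1.68) and Ezh2, a histone methyltransferase (1.08), also rose, and 0 fell. With library totals, for which no share of all genes was computed, 3 rose and 2 fell.

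The class I pathway, which shares IFN-γ control and part of the genomic region, gives a comparison for the class II genes. Of 9 class I pathway genes, 9 rose in the test of M1 polarization, in which 23.3% of all genes rose. With library totals 9 rose as well, and no share of all genes was computed for that scaling. In M1 against M0, 9 were called higher, where 9.37% of genes were called higher. Their median log2 fold change in that comparison was 1.81, beside -0.03 over all genes. Nlrc5, which encodes the CIITA relative that acts on class I genes, had 650 counts in M0, 678 in RM0, 1099 in M1, 909 in RM1, 817 in M2 and 832 in RM2 and rose by 0.93 (SE 0.15, edgeR adjusted p = 0.000631). B2m, the class I light chain gene, went from 12396 counts in M0 to 40875 in M1, and H2-D1, a heavy chain gene, from 17707 to 50745. In RM1 against RM0, 5 of the 9 were called higher, where 6.16% of genes were. A test of the difference between the class I and class II genes was not made.

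Within the class II region of chromosome 17, class I pathway genes lie between class II genes. Tap1, a peptide transporter subunit gene, went from 20 RPKM in M0 to 175 RPKM in M1, and Psmb9, an immunoproteasome subunit gene, from 4.35 to 32.3 RPKM. Over the same stretch, H2-DMa went from 5.91 to 3.51 RPKM and H2-Ab1 from 0.957 to 0.446 RPKM. H2-Eb2 and H2-Ea-ps, at the far end, had 0 counts in all 6 libraries. H2-Oa, which encodes a chain of an H2-DM inhibitor, had 31 counts in M0, 16 in RM0, 1 in M1, 11 in RM1, 27 in M2 and 25 in RM2. Of 5 other class II chain genes, 2 reached 10 counts in M0 or M1, and of these H2-Oa was called lower in M1 against M0, where 22.7% of genes were called in either direction, and both were with library totals. H2-Oa had a ratio of scaled counts of 0.0433 (log2 interval -9.88 to -1.95), and in the test of M1 polarization it had -1.62 (edgeR adjusted p = 0.0626). Its row lists only 8.014% of the annotated gene and overlaps the antisense gene BC051537. The reference genome is of strain C57BL/6, while RAW264.7 was established from BALB/c mice, and how many reads of these polymorphic genes failed to align was not tested.

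**Figure D3:**
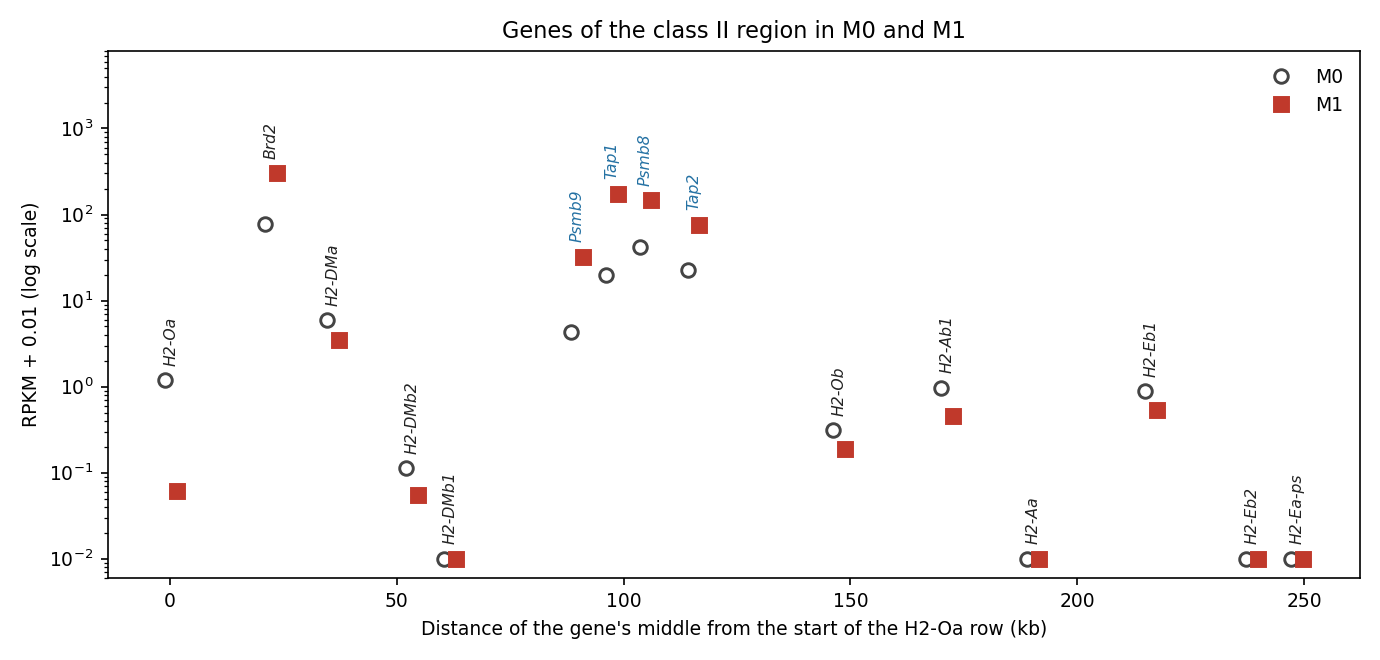
Level per length (RPKM plus 0.01, log axis) of genes of the class II region in M0 (open circles) and M1 (red squares) by distance in kb from the start of the H2-Oa row, with points offset sideways for view and class I pathway genes named in blue. Psmb9, Tap1, Psmb8 and Tap2 lie higher in M1, while the measured class II genes on both sides do not, and points at the bottom are genes with 0 counts.

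Of the endosomal genes that act on the invariant chain and on antigens, 5 of 7 rose in the test of M1 polarization and 0 fell, while 23.3% of all genes rose and 24.3% fell. With library totals, for which no share of all genes was computed, 4 of the 7 rose and 1 fell. Ctss, the protease of the last steps of invariant chain cleavage, had 4886 counts in M0, 9789 in M1, 4954 in RM0 and 7845 in RM1 and rose by 1.17 (SE 0.15, edgeR adjusted p = 0.000148). Ctsl, another cathepsin gene, rose by 1.53, Lgmn, an asparaginyl endopeptidase gene, by 0.97 and Ctsb by 0.86. Cd83, which is known to hold class II at the surface, rose by 0.72 (SE 0.128, edgeR adjusted p = 0.00104). The plot of fold changes by gene list sets these beside the class II genes.

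**Figure D4:**
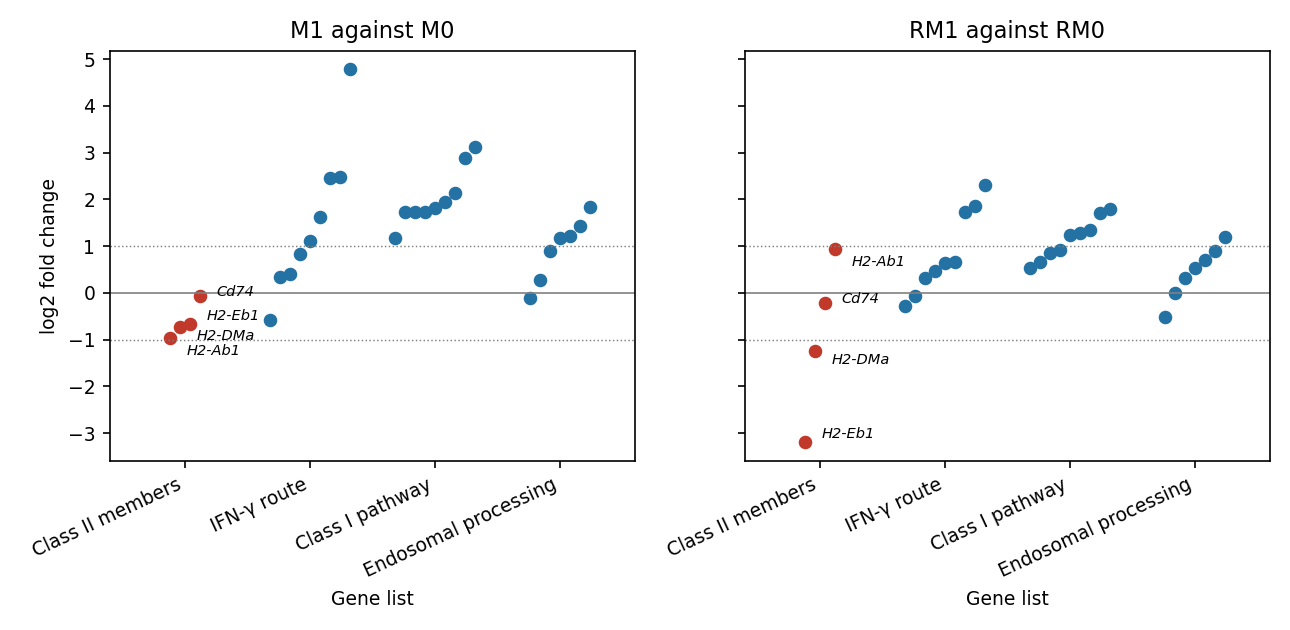
Log2 fold changes in M1 against M0 and in RM1 against RM0 for genes with at least 10 counts in 1 of both libraries, with 1 point per gene, the class II members in red and 3 other lists in blue, and 2-fold as dotted lines. In M1 against M0 the 4 members lie between -0.97 and -0.06, and the 9 class I genes between 1.18 and 3.13.

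M2 polarization addresses IL-4, a known inducer of class II in several cell types. In M2 against M0, 1 member was called lower, H2-Ab1 (8 counts against 23, log2 fold change -1.34, interval -2.93 to -0.344), where 0.442% of 11762 genes were called lower. H2-DMa differed by -0.19 (-0.47 to 0.0801), H2-Eb1 by -0.18 (-1.01 to 0.625) and Cd74 by 0.19 (0.167 to 0.219). In RM2 against RM0, none of the 7 was called, where 2.61% of genes were called in either direction. H2-Ab1 differed there by 0.51 (-0.864 to 2.24), H2-Eb1 by 0.8 (0.155 to 1.57), H2-DMa by -0.61 (-0.918 to -0.327) and Cd74 by 0.2 (0.176 to 0.228). The H2-Ab1 call in M2 against M0 rests on 23 counts in M0.

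In the test of M2 polarization with edgeR, 0 of the 4 members tested passed, 0 had an unadjusted p under 0.05, and DESeq2 passed 0, while 0.19% of all genes passed edgeR's test. H2-DMa had a log2 fold change of -0.41 (SE 0.187, edgeR adjusted p = 0.497) and Cd74 of 0.2 (SE 0.141, edgeR adjusted p = 0.606). Of the IFN-γ route and the class I genes, 0 passed in M2.

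Irradiated and non-irradiated libraries were compared within each state. The irradiated cells were kept for 24 h more, and whether the non-irradiated cells were is not stated. If they were not, radiation and time cannot be told apart, here or in the test of irradiation. In RM0 against M0, 1 member was called lower, H2-Ab1 (7 counts against 23, log2 fold change -1.45, interval -3.16 to -0.431), where 0.821% of 11688 genes were called lower. This comparison shares the M0 library with M2 against M0, and no other library had more than 13 counts of H2-Ab1. Cd74 differed by 0.05 (0.0252 to 0.0794), H2-DMa by 0.07 (-0.199 to 0.331) and H2-Eb1 by -0.03 (-0.836 to 0.767). Outside the members, H2-DMb2 was called higher, with 13 counts against 3 (log2 fold change 1.57, interval 0.269 to 4.58). Of all genes called in this comparison, 46.7% were higher. H2-DMb2 was called lower in RM1 against RM0, with 0 counts against 13, where 7.87% of genes were called lower. In RM2 against RM0 it was called lower with 3 counts against 13, and H2-Ob with 5 against 12. There 2.61% of genes were called in either direction.

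In RM1 against M1, 1 member was called lower, H2-Eb1, where 2.25% of 11443 genes were called lower. It had 1 count against 13, a ratio of scaled counts of 0.0682 with an interval of the log2 ratio from -9.28 to -1.14. H2-DMa differed by -0.44 (-0.877 to -0.0214), Cd74 by -0.11 (-0.142 to -0.0778) and H2-Ab1 by 0.45 (-0.853 to 2). With library totals as the scaling, Cd74 was at 0.03. In the same comparison 4 of 9 class I genes were called lower, Psmb9 (-1.73), Tap2 (-1.3), Tap1 (-1.28) and Psmb8 (-1.2). On the IFN-γ route Irf1 (-2.51) and Irf8 (-1.77) were called lower, as was Socs1 (-1.85). H2-Oa was called higher, with 11 counts against 1, a ratio of scaled counts of 9.75 with an interval of the log2 ratio from 0.504 to 8.71. Of all genes called in this comparison, 57.8% were higher.

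In RM2 against M2, none of the 7 members was called, where 1.97% of 11801 genes were called in either direction. H2-Eb1 differed by 0.95 (0.295 to 1.74), with 51 counts against 26. H2-DMa differed by -0.36 (-0.666 to -0.0568), H2-Ab1 by 0.4 (-0.957 to 2.01) and Cd74 by 0.06 (0.0363 to 0.0864).

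For an effect of irradiation shared by the 3 states, 0 of 4 members tested passed edgeR's test, 0 had an unadjusted p under 0.05, and DESeq2 passed 0, while 0.475% of all genes passed edgeR's test. DESeq2 gave no adjusted p for H2-Ab1. The log2 fold changes were -0.23 for H2-DMa (SE 0.159, edgeR adjusted p = 0.522), -0.32 for H2-Ab1 (SE 0.486, adjusted p = 0.788), 0.06 for H2-Eb1 (SE 0.486, adjusted p = 0.965) and 0 for Cd74 (SE 0.116, adjusted p = 0.996). The value of H2-Eb1 depended on the libraries and the tool, at 0.53 without M1 and RM1, -0.81 without M2 and RM2 and -0.38 with DESeq2. For Ciita, H2-Aa and H2-DMb1 a difference was not detectable at this depth.

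The genes with profiles most like those of the abundant members were found among 10183 other genes, by distance between centred log2 profiles over the 6 libraries. For H2-DMa they were Klc3 (distance 0.164), Tmem231 (0.169) and Ydjc (0.218). For Cd74 they were Mafg (0.0709), Mir5107 (0.0722), which overlaps the annotated Cd74 gene, and Lmo4 (0.0971). These are descriptions over 6 points that share depth and treatment.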

How the data were processed

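RNA was sequenced from 6 pooled samples. According to the submitters' processing notes, Trimmomatic 0.36, HISAT2 2.2.1, HTSeq 0.11.3 and build mm10 were used. The authors counted reads per gene and deposited raw counts, whole numbers without normalization, for 24062 genes. The strand and overlap settings of the counting are not given in the sources used here. The listed span of some genes covers only part of the annotated gene.

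Of 81 entries of the gene lists, 77 had a single row, matched by symbol except for March8 and Adgre1, which were matched by Entrez number. Of the tables' symbols, 27 had been turned into dates, so the gene March1 was not analysed here. Level per length (RPKM) used the longest transcript in GENCODE M21. TMM factors came from genes that reached 10 counts in 3 or more libraries (edgeR 4.0.16, R 4.3.3). Intervals between 2 libraries are exact Clopper-Pearson intervals at 95% and cover counting error only, as does the floor of 3 counts. The model was polarization plus irradiation, with edgeR's quasi-likelihood test and Benjamini-Hochberg adjustment at 0.05. It assumes the same effect in each state. Its p-values rest on how far these libraries depart from that, drawn toward other genes, and not on a spread between replicates. Irf1 departed from it, at -2.51 in RM1 against M1 and -0.03 in RM0 against M0. DESeq2 1.42.0, other scalings, a prior count of 0.25, other count minimums, a 4-fold threshold, a model of the tested factor only and the removal of each state were tried as alternatives.

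The members and the gene lists were chosen with earlier results of these data known. The text names all members, up to 4 genes of each other list with the largest change among those called, Irf1, Nlrc5, H2-DMb2 and H2-Ea-ps, and the 3 genes nearest in profile to members with a mean of at least 50 counts. A further gene that this rule names is not reported here. Brd2, Mir5107, Ifngr1, Spi1, Mertk, Zbtb46, Itgax and the genes at 0 among markers and class II chains were named after their values were seen. Python 3.11.15 with matplotlib 3.10.9 drew the figures.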

Additional observations from a re-analysis of the deposited data

Results flagged for a closer look

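H2-Eb1 went in opposite directions after irradiation in the M1 and M2 states. Its log2 fold change was -2.55 in RM1 against M1 (1 count against 13) and 0.95 in RM2 against M2 (51 counts against 26). Neither counting interval includes 0, but each state has 1 library pair, and the difference between both was not tested.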

How the results depend on the processing

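The calls between 2 libraries depended most on low counts, and the small Cd74 changes depended on the scaling. With library totals, Cd74 was at 0.03 in RM1 against M1, 0 in RM0 against M0 and 0.01 in RM2 against M2. As reported, these were -0.11, 0.05 and 0.06. In M1 against M0, Cd74 was at -0.5 with library totals and -0.03 with DESeq2 size factors, beside -0.06 as reported. With at least 30 counts required, 0 members were called in RM0 against M0, 0 in RM1 against M1, 0 in M2 against M0 and 1 in RM1 against RM0 (H2-DMa). With a 4-fold threshold, 0 were called in RM0 against M0, 0 in M2 against M0 and 1 in RM1 against RM0 (H2-Eb1). With no minimum of counts, 2 were called in M2 against M0, of which H2-Aa had 3 counts against 0. In M1 against M0, 3 were called with library totals and 1, H2-Ab1, with a prior count of 0.25, which also added H2-Ab1 as higher in RM1 against RM0. In the test of M1 polarization 3 passed with library totals and 2 without M2 and RM2, against 1 as reported. No called change of a member turned direction under any alternative run. H2-DMa passed the test of M1 polarization under every alternative run, with a log2 fold change from -1.36 to -0.99. The number of members passing the tests of irradiation and M2 polarization was 0 under every alternative run, each removal of a state included. Removal of 1 irradiation state from the tests of polarization was not run, since no residual degrees of freedom remain. No paired analysis was possible because each group has 1 library, and polarization or irradiation is the block in the model. Depth limits Ciita, H2-Aa and H2-DMb1 to the statement that at most 3 counts were seen in any library.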
